A study of Rattus norvegicus with 8 samples.

Results

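The expression of 10 genes of hepatic antioxidant defence, Nqo1, Gclc, Gclm, Txnrd1, Gsr, Cat, Sod2, Gpx1, Gpx4 and Prdx1, was compared between livers of iron-deficient and control rats. Every probe set that the array annotation pairs with exactly 1 of these symbols was taken, which gave 12 of 31042 probe sets for 9 of the 10 genes. The only probe set paired with Prdx1 also carries a second symbol, so no value is given for Prdx1. Gclc, Txnrd1 and Gpx4 have 2 probe sets each, called the first and the second in the order of their identifiers, and the other 6 genes have 1.

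The animals were male Sprague-Dawley rats, an outbred strain, bought at 3 weeks and 7 weeks old per the labels. One group ate a purified control diet with ferric citrate and the other the same diet with the iron salt left out. On day 17 the rats fed for 1.5 h before the livers were removed, when blood hemoglobin in the iron-deficient group stood at 42% of the control level. RNA of 4 livers per diet was hybridised to Affymetrix rat arrays, 1 array per liver, and the labels call each a biological replicate. The diets were given to 7 iron-deficient and 6 control rats, and the labels do not say which of them gave the arrays. Both groups share strain, sex, age and the restricted feeding hours, and no drug or genetic change was used.

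NRF2, encoded by Nfe2l2, is a transcription factor that KEAP1 holds in the cytoplasm and marks for degradation. Electrophiles and oxidants modify KEAP1, and NRF2 then enters the nucleus, pairs with small MAF proteins and binds antioxidant response elements. Its classical targets in liver supply reducing power and glutathione. A second set of enzymes, catalase, the superoxide dismutases and the glutathione peroxidases, removes superoxide and peroxides directly. Catalase carries heme iron, mitochondrial superoxide dismutase carries manganese, and GPX1, GPX4 and TXNRD1 carry selenocysteine at the active site.

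The letters that NRF2 is known to bind were looked for near the start sites of these genes, and the matches are printed to show where such letters lie. The core TGACNNNGC was searched on both strands in RefSeq windows of 250 bases before to 50 bases after each start (build GRCr8). Of 9 member genes with a window, 4 held it, Gclm, Txnrd1, Sod2 and Prdx1, in 4 of 12 windows, and 12.1% of all 33469 windows of the same length held it. Each match lay on the strand opposite to the gene, so the capitals below spell the reverse complement of the core, GCNNNGTCA. The lines are in the direction of the gene, 5′ to 3′, with 20 bases on each side of the match.
Gclm, chr2:213031943-213031991, plus strand: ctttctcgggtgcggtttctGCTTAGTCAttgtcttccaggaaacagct
Txnrd1, chr7:22755954-22756002, minus strand: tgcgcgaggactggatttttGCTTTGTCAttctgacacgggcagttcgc
Sod2, chr1:50050175-50050223, minus strand: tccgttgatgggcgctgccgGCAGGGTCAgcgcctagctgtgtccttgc
Prdx1, chr5:135383751-135383799, plus strand: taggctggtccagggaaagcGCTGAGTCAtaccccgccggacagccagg

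The Prdx1 match also holds the letters TGAGTCA, which AP-1 factors are known to bind. The matches begin 172 bases before the start in Gclm, 78 in Txnrd1, 35 in Sod2 and 135 in Prdx1. The Txnrd1 match lies in 1 of that gene's 2 windows. Nqo1, Gclc, Cat, Gpx1 and Gpx4 had no match in these windows, and bases outside the windows were not searched. Of the members with a match and a value, Gclm and Sod2 had lower means in iron-deficient livers and Txnrd1 had higher means, and none of them passed the test given below.

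The deposited values are log2 values whose differences between arrays are compressed, more in some probe sets than in others. Over all probe sets, the median within-group SD was 7.82e-06. Differences are thus no fold changes, and their sizes cannot be set against each other between probe sets. A standardised difference expresses each one in units of the within-group SD of its own probe set. The diet was visible in Tfrc, the iron uptake receptor, which was higher by 17.4 within-group SDs (limma adjusted p = 0.00120), and Hamp, the hepcidin gene, was lower in all 4 iron-deficient livers than in any control without passing the test (limma adjusted p = 0.0735). Of the hepatocyte markers looked for, 7 of 8 were measured, 4 higher and 3 lower, and none passed in limma. Alb stood at 15.0025 in both groups, and the standardised differences ran from -2.10 in Ttr to 4.05 in Serpina1.

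None of the 12 probe sets passed an adjusted p of 0.05 in limma, where 0.0322% of all probe sets did. With 4 livers per group, missing this threshold does not show that a member was unchanged. Nqo1 was higher and Cat lower in all 4 iron-deficient livers than the control mean, and these 2 were the only members with an unadjusted limma p under 0.05. That is 2 of 12, or 16.7%, beside 11.4% of all probe sets. The diet groups did not overlap for 1 of 12 probe sets, Cat, or 8.33%, beside 6.48% of all probe sets. The mean was higher in iron-deficient livers for 7 probe sets and lower for 5, or 41.7%, beside 50.4% lower of all probe sets, and the median standardised difference was 0.0965, beside -0.0105 over all probe sets. All 12 had a higher mean under quantile normalization and 11 of them under median centring. Median centring added 5.06e-05 to every difference, beside a median absolute difference of 4.49e-06 over all probe sets. Run without Hamp, quantile normalization gave 5 members a lower mean and left Cat, Gpx1 and Gpx4 (first) equal on all arrays. The shares of all probe sets under these scalings are not given here, so these counts are no result about the members. The limma adjusted p of the members ran from 0.342 to 0.986.

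**Figure D1:**
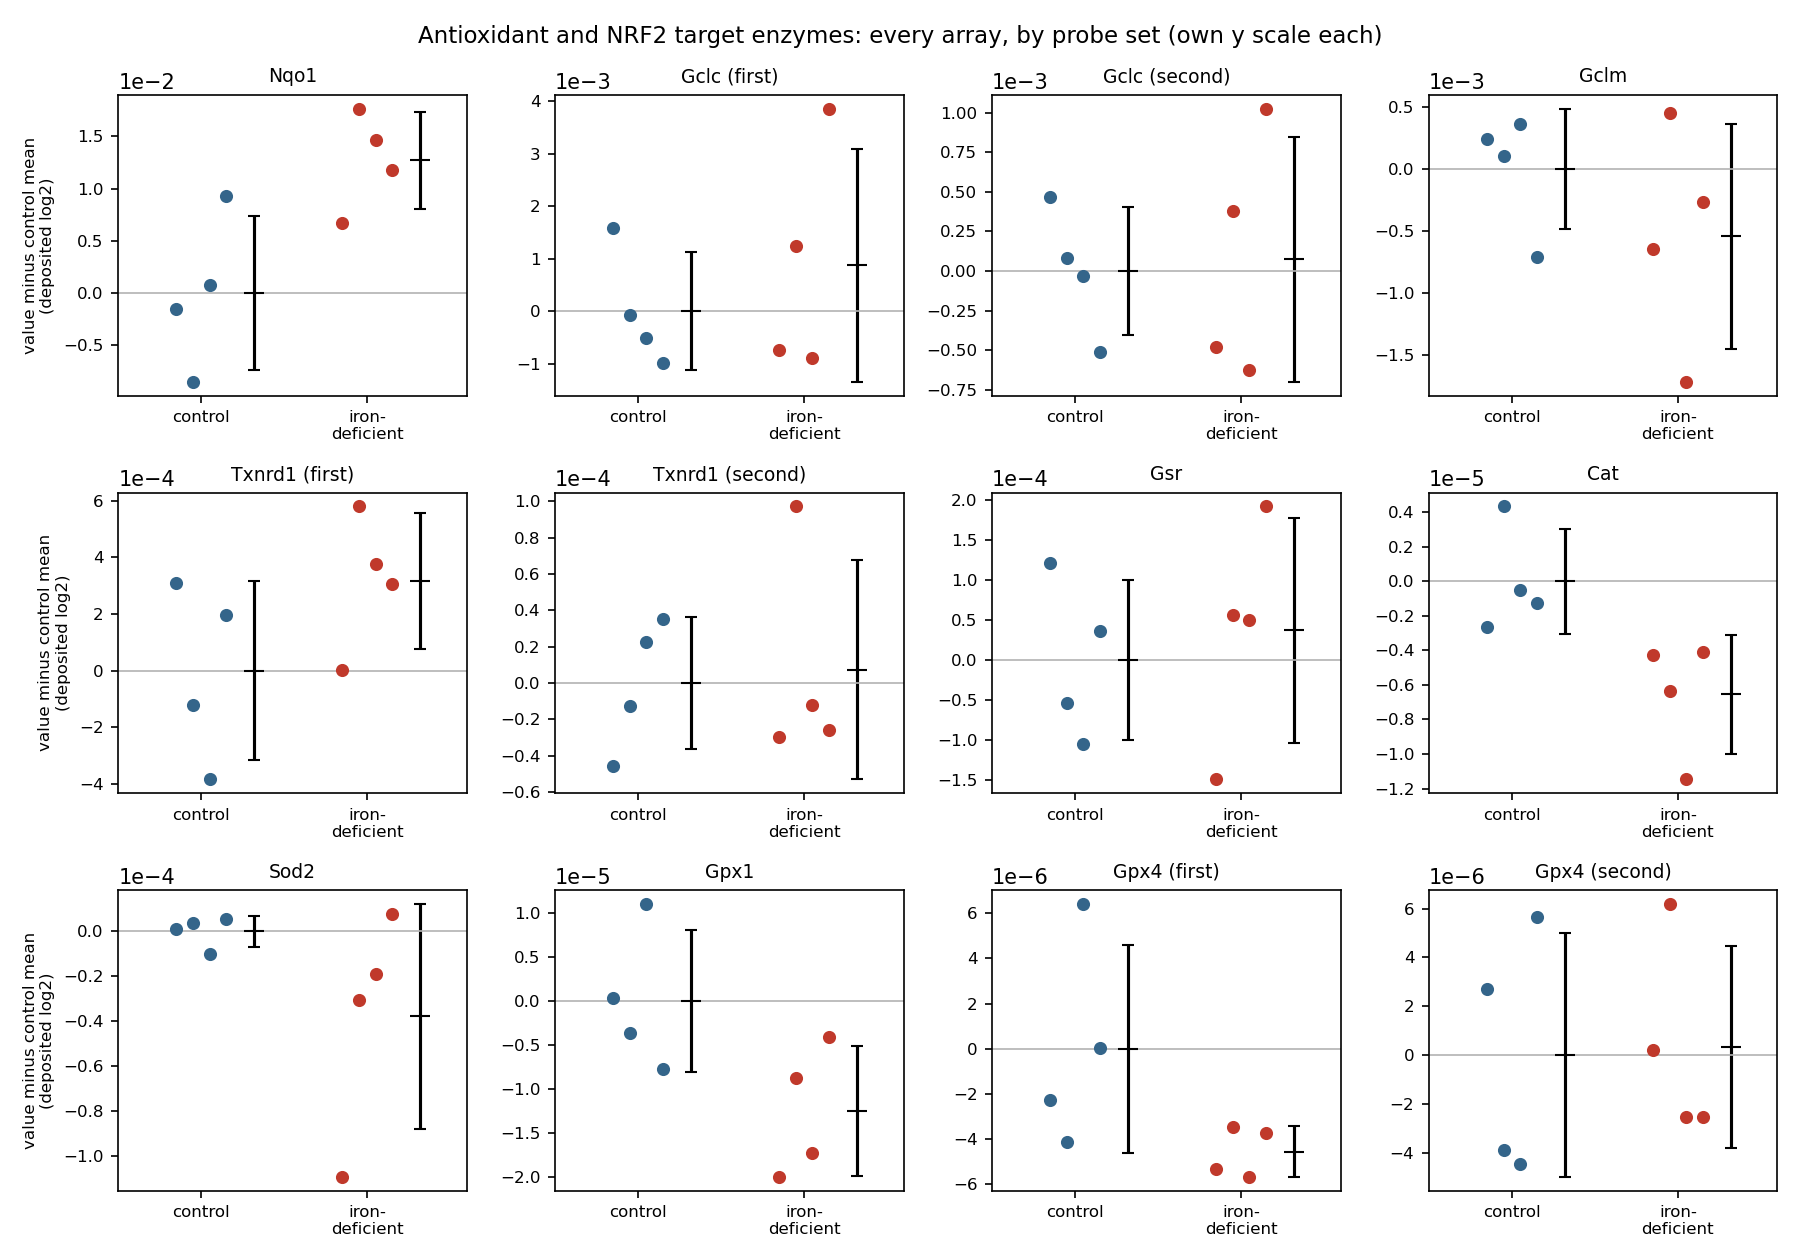
Deposited log2 value of each array minus the control mean, in a panel with its own y scale for each of the 12 probe sets (blue, 4 control livers; red, 4 iron-deficient livers; black, mean and SD). The groups are apart only for Cat, and 3 of 4 iron-deficient livers lie above every control for Nqo1.

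Nqo1 encodes the quinone reductase that is the most used marker of NRF2 activity. Its values were 9.636, 9.647, 9.644 and 9.641 in iron-deficient replicates 1 to 4 and 9.628, 9.621, 9.630 and 9.639 in control replicates 1 to 4. Of the iron-deficient livers, 3 lay above every control, and iron-deficient replicate 1 lay below control replicate 4. The difference was 0.0127 ± 0.00415 (SE, n = 4 per group), with a 95% interval from 0.00276 to 0.0226. The standardised difference was 2.07 (limma adjusted p = 0.342, unadjusted p = 0.0198). Of all probe sets, 5.78% had a smaller p. Among 31041 probe sets ordered from the top on each array, with Hamp left out, Nqo1 ranked 3023 to 3043 in iron-deficient and 3037 to 3071 in control livers. The direction held under every scaling tried and without any single array, and the limma adjusted p ran from 0.196 to 0.565.

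Gclc and Gclm encode the catalytic and the modifier subunit of glutamate-cysteine ligase, the rate-limiting enzyme of glutathione synthesis. For the first Gclc probe set, iron-deficient replicates 1 to 4 lay at -7.41e-04, 0.00125, -8.87e-04 and 0.00385 from the control mean. Controls 1 to 4 lay at 0.00158, -7.87e-05, -5.11e-04 and -9.94e-04. Iron-deficient replicate 4 was the highest of the 8 livers, and the other 3 were spread among the controls. The difference was 8.68e-04 ± 0.00119 (limma adjusted p = 0.848), with a standardised difference of 0.495, and it turned to -1.27e-04 without iron-deficient replicate 4.

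The second Gclc probe set differed by 7.43e-05 ± 4.18e-04 (limma adjusted p = 0.974). Its iron-deficient values ran from -6.28e-04 to 0.00103 from the control mean and its control values from -5.15e-04 to 4.66e-04, so the iron-deficient livers spanned the whole control range. Iron-deficient replicate 4 was again the highest, and without it the difference was -2.43e-04. Across the 8 livers both Gclc probe sets followed each other, with Pearson's r of 0.954 and Spearman's rho of 0.976 (exact permutation p = 7.44e-05 and 3.97e-04, Benjamini-Hochberg adjusted over 66 pairs of member probe sets 0.00491 and 0.0262). Without the 2 livers farthest from the median of the first probe set, r was 0.905, and within the diet groups it was 0.975. On the deposited scale the 2 probe sets thus varied alike between arrays, while the diet difference was small beside that variation. With 1 array per liver, differences between livers and between arrays cannot be told apart. After quantile normalization r was 0.327, or 0.298 when run without Hamp. The second probe set moved only between ranks 1018 and 1021 of 31041 over the arrays.

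Gclm differed by -5.41e-04 ± 4.91e-04 (limma adjusted p = 0.747), with a standardised difference of -0.745. Iron-deficient replicates 1 to 4 lay at -6.41e-04, 4.55e-04, -0.00172 and -2.64e-04 from the control mean, and controls 1 to 4 at 2.42e-04, 1.07e-04, 3.64e-04 and -7.12e-04. Iron-deficient livers held both the highest value, in replicate 2, and the lowest, in replicate 3. Within the modifier subunit, then, the groups overlapped over the whole control range. Under quantile normalization the sign turned, to 8.43e-04.

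Txnrd1 encodes cytosolic thioredoxin reductase, the selenoenzyme that keeps thioredoxin reduced, and Gsr encodes glutathione reductase, which returns oxidised glutathione to its reduced form. The first Txnrd1 probe set lay at 9.75e-07, 5.80e-04, 3.77e-04 and 3.07e-04 from the control mean in iron-deficient replicates 1 to 4. Controls 1 to 4 lay at 3.10e-04, -1.22e-04, -3.84e-04 and 1.96e-04. All 4 iron-deficient livers were above the control mean and 2 of them above every control. The difference was 3.16e-04 ± 1.89e-04 (standardised difference 1.13, limma adjusted p = 0.594).

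The second Txnrd1 probe set differed by 7.40e-06 ± 3.37e-05 (limma adjusted p = 0.967). Iron-deficient replicate 2 lay at 9.73e-05 above the control mean and the other 3 between -3.00e-05 and -1.21e-05, with controls from -4.55e-05 to 3.51e-05. A single liver thus set the sign of this mean, and without iron-deficient replicate 2 the difference was -2.26e-05. The 2 Txnrd1 probe sets had an r of 0.248 over the 8 livers (exact permutation p = 0.554, adjusted 0.903) and a rho of 0.143 (exact permutation p = 0.752, adjusted 0.955). Without the 2 farthest livers r was 0.604. Which transcripts each probe set reads was not analysed here.

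Gsr differed by 3.70e-05 ± 8.24e-05 (standardised difference 0.303, limma adjusted p = 0.921). Its iron-deficient values lay at -1.49e-04, 5.56e-05, 4.94e-05 and 1.92e-04 from the control mean in replicates 1 to 4, and its control values at 1.22e-04, -5.37e-05, -1.04e-04 and 3.65e-05. The lowest and the highest of the 8 livers were both iron-deficient, replicates 1 and 4, and without replicate 4 the difference was -1.47e-05.

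**Figure D2:**
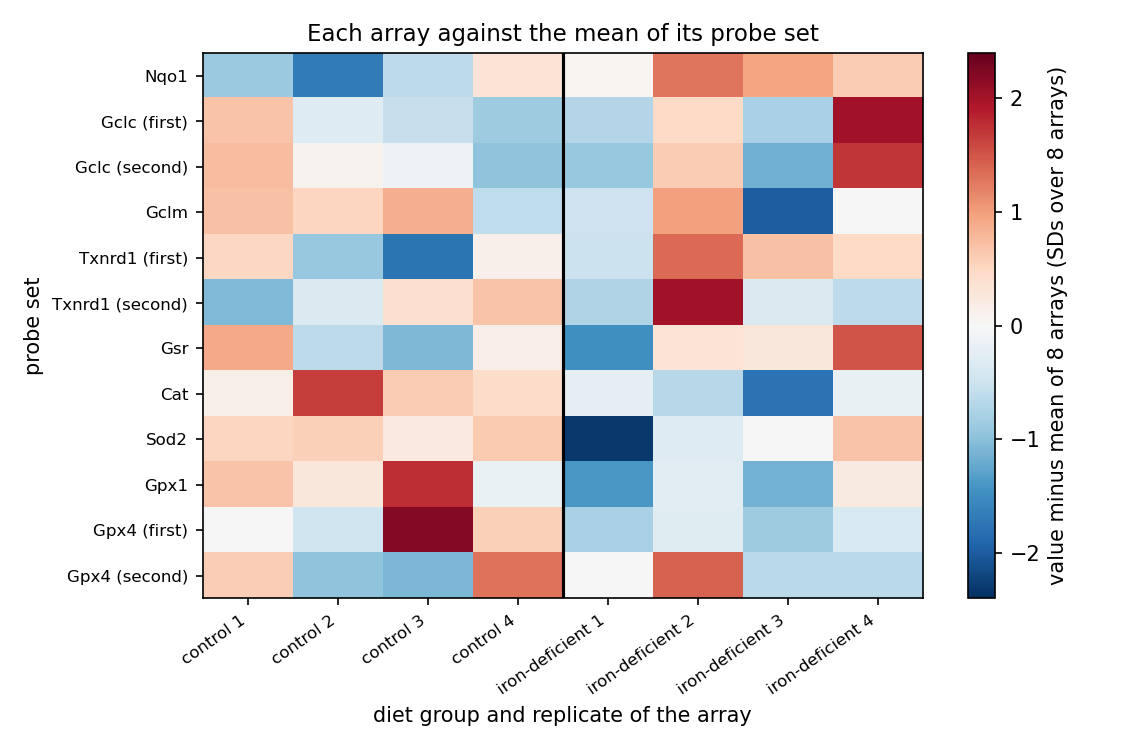
Each array's value minus the mean of its probe set over 8 arrays, in SDs over the 8 arrays (columns, 4 control and 4 iron-deficient livers; rows, the 12 probe sets). Iron-deficient replicate 4 is the highest liver in both Gclc rows and in Gsr, and control replicate 3 is the highest in the rows of Gpx1 and Gpx4 (first).

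Cat encodes catalase, the heme enzyme of peroxisomes that splits hydrogen peroxide. It lay at -4.29e-06, -6.33e-06, -1.15e-05 and -4.09e-06 from the control mean in iron-deficient replicates 1 to 4, and at -2.65e-06, 4.36e-06, -4.85e-07 and -1.23e-06 in control replicates 1 to 4. All 4 iron-deficient livers were below every control, which held for 3.41% of all probe sets in that direction. The difference was -6.54e-06 ± 2.30e-06, with a 95% interval from -1.21e-05 to -1.03e-06 and a standardised difference of -2.02 (limma adjusted p = 0.371, unadjusted p = 0.0266). The deposited means were 13.7413 in both groups, and with Hamp left out Cat ranked 65 of 31041 on all 8 arrays. Quantile normalization turned the difference to 0.0283, and left all 8 values equal when run without Hamp. Median centring turned it to 4.40e-05, since that scaling added 5.06e-05 to every difference. With Hamp left out the rank of Cat was fixed, and the constant added by median centring was larger than the difference. These scalings thus could not test the lower values of Cat, which are shown on the deposited scale only.

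Gpx1 encodes the abundant cytosolic glutathione peroxidase, and Gpx4 the peroxidase that reduces lipid hydroperoxides in membranes. Gpx1 lay at -2.00e-05, -8.69e-06, -1.73e-05 and -4.08e-06 from the control mean in iron-deficient replicates 1 to 4 and at 3.75e-07, -3.67e-06, 1.11e-05 and -7.75e-06 in control replicates 1 to 4. All 4 iron-deficient livers were below the control mean and 3 below every control. The difference was -1.25e-05 ± 5.28e-06 (standardised difference -1.61, limma adjusted p = 0.446).

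The first Gpx4 probe set had the same order of groups, at -5.36e-06, -3.47e-06, -5.69e-06 and -3.76e-06 in iron-deficient replicates 1 to 4 and -2.28e-06, -4.16e-06, 6.43e-06 and 1.00e-08 in controls 1 to 4. All 4 iron-deficient livers were below the control mean and 2 below every control. The difference was -4.57e-06 ± 2.37e-06 (standardised difference -1.36, limma adjusted p = 0.533), or -2.43e-06 without control replicate 3, the highest liver. The second Gpx4 probe set differed by 3.33e-07 ± 3.17e-06 (limma adjusted p = 0.986), with iron-deficient values from -2.55e-06 to 6.20e-06 and control values from -4.47e-06 to 5.67e-06.

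The first Gpx4 probe set and Gpx1 kept the same rank on all 8 arrays with Hamp left out, as did 5.94% of all probe sets. Quantile normalization turned Gpx1 to 0.00163 and Gpx4 (first) to 0.00709. Run without Hamp, it made the values of each equal on all arrays. Under median centring both also turned, to 3.81e-05 and 4.60e-05. Over the 8 livers Gpx1 and Gpx4 (first) had an r of 0.818 and a rho of 0.690 (exact permutation p = 0.0103 and 0.0694, adjusted 0.226 and 0.572). Without the 2 livers farthest from the median of Gpx1, r was weaker, at 0.439, and within the diet groups it was 0.690. The 2 Gpx4 probe sets had an r of -0.121 and a rho of 0.0714 (exact permutation p = 0.814 and 0.882, adjusted 0.976 and 0.970), and r was 0.494 without the 2 farthest livers.

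Sod2 encodes the manganese superoxide dismutase of mitochondria. It lay at -1.10e-04, -3.07e-05, -1.93e-05 and 7.43e-06 from the control mean in iron-deficient replicates 1 to 4, and at 1.03e-06, 3.51e-06, -1.00e-05 and 5.47e-06 in control replicates 1 to 4. Iron-deficient replicates 1 to 3 lay below every control and replicate 4 above every control. The difference was -3.80e-05 ± 2.42e-05 (standardised difference -1.06, limma adjusted p = 0.620), and -1.42e-05 without iron-deficient replicate 1, the lowest liver. It turned to 1.70e-04 under quantile normalization and to 1.26e-05 under median centring.

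**Figure D3:**
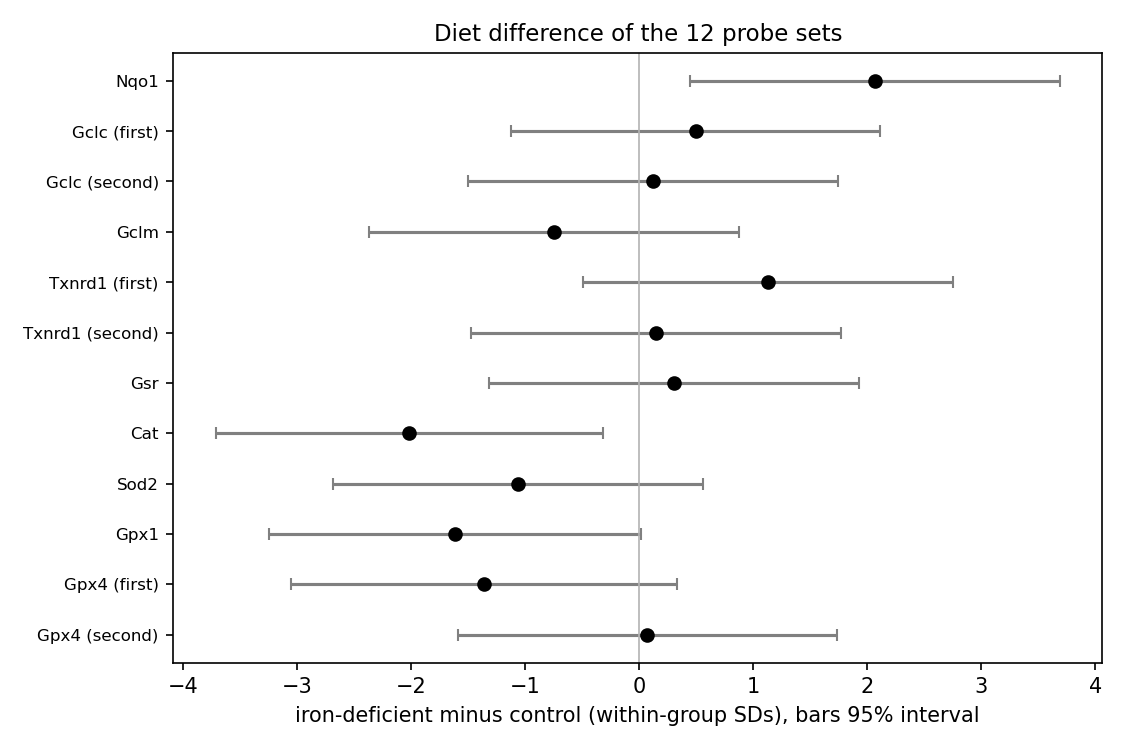
Difference between iron-deficient and control livers for the 12 probe sets, in within-group SDs, with bars for the 95% interval from limma (n = 4 per group). The interval lies above 0 for Nqo1 and below 0 for Cat, and covers 0 for the other 10 probe sets, before adjustment for multiple tests.

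Of the 66 pairs of member probe sets, 42 had an r above 0 and 24 below, and the Gclc pair alone passed an adjusted p of 0.05. Nqo1 and Cat ran in opposite directions over the 8 livers, with an r of -0.824 and a rho of -0.810 (exact permutation p = 0.0101 and 0.0218, adjusted 0.226 and 0.572). Without the 2 farthest livers that r was -0.683, and within the diet groups it was -0.579.

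Among the 9 measured regulators of NRF2, none passed in limma over all probe sets, where 0.0422% of 14217 genes taken by their brightest probe set did. Unadjusted p was under 0.05 for 2 of 9, both lower, beside 13.2% of all genes. Keap1 differed by -3.00e-05 ± 8.16e-06 (standardised difference -2.50, limma adjusted p = 0.272), with iron-deficient livers from -4.20e-05 to -2.34e-05 and controls from -1.49e-05 to 2.06e-05 of the control mean. Its second probe set differed by -9.89e-06 ± 6.39e-06. Nfe2l1, a related factor that acts on proteasome genes, differed by -1.76e-05 ± 4.01e-06 (standardised difference -3.01, limma adjusted p = 0.215), and its other 2 probe sets by -6.17e-08 and -1.18e-05. The groups did not overlap for Keap1 and Nfe2l1, beside 7.82% of all genes, but median centring turned both, to 2.05e-05 and 3.30e-05. Nfe2l1 also turned under quantile normalization, to 1.62e-04, and to 4.87e-07 when that was run without Hamp. Keap1 stayed lower under both quantile settings. Nfe2l2 itself differed by 1.35e-04 ± 1.32e-04 (standardised difference 0.691, limma adjusted p = 0.770), with iron-deficient livers from -1.67e-04 to 3.86e-04 of the control mean and controls from -8.86e-05 to 1.49e-04.

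Of 24 measured other targets of NRF2, 16 were lower and 8 higher, beside 53.0% lower of all genes, and none passed in limma over all probe sets. Unadjusted p was under 0.05 for 5, of which 4 were lower, beside 13.2% of all genes in either direction and 7.5% lower. Hmox1, the heme-degrading enzyme that NRF2 and the heme sensor BACH1 both act on, differed by 1.19e-05 ± 2.74e-04 (limma adjusted p = 0.995). Its iron-deficient values, from -7.13e-04 to 5.57e-04 of the control mean, lay on both sides of the control range of -1.95e-04 to 1.60e-04. Gstp1, the pi-class glutathione transferase, differed by -8.66e-05 ± 2.12e-05 (standardised difference -2.77, limma adjusted p = 0.238), and all 4 iron-deficient livers, from -1.23e-04 to -5.20e-05, lay below every control, from -2.17e-05 to 2.12e-05. Gstp1 was the only 1 of the 24 whose groups did not overlap, beside 4.40% of all genes in that direction. Under quantile normalization Gstp1 turned to 1.38e-04.

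Of 21 other thiol, peroxide and superoxide enzymes, 13 were lower and 8 higher, beside 53.0% lower of all genes. None passed in limma, beside 0.0422% of all genes, or had groups that did not overlap, beside 7.82%. Unadjusted p was under 0.05 for 2 of 21, both lower, beside 13.2% of all genes. Sod1, the copper and zinc superoxide dismutase, differed by -3.41e-06 ± 1.41e-06 (standardised difference -1.88, limma adjusted p = 0.432). Gpx3, the secreted glutathione peroxidase, differed by -6.52e-05 ± 2.68e-05 (standardised difference -1.64, limma adjusted p = 0.431). Of 9 genes for selenoprotein synthesis and supply, 5 were lower and 4 higher, beside 53.0% lower of all genes. None of them passed, beside 0.0422% of all genes. Unadjusted p was under 0.05 for 1 of 9, beside 13.2% of all genes in either direction and 7.5% lower. The gene was Eefsec, which was lower. It was also the only 1 whose groups did not overlap, beside 4.40% of all genes in that direction. Eefsec, the elongation factor that brings selenocysteine to the ribosome, differed by -3.20e-05 ± 8.27e-06 (standardised difference -2.62, limma adjusted p = 0.255), and all 4 iron-deficient livers, from -5.00e-05 to -1.49e-05, lay below every control, from -1.08e-05 to 5.77e-06. Eefsec turned under median centring, to 1.86e-05, and Sod1 to 4.72e-05. Under quantile normalization Eefsec turned to 1.61e-04 and Sod1 to 0.0125, and without Hamp Eefsec turned to 1.02e-04.

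Over these 63 genes, 40 were lower and 23 higher, beside 53.0% lower of all genes. The number lower was 12 under median centring, 19 under quantile normalization and 34 when that was run without Hamp. It ran from 36 to 41 with single arrays left out. The shares of all genes under these settings are not given here, so these counts are no result about the lists. On the deposited scale, the median standardised difference was -0.362, beside -0.0727 over all genes. Unadjusted p was under 0.05 for 10 of 63, 9 of them lower, beside 7.5% of all genes lower at that p, and the groups did not overlap for 4, all lower, beside 4.40% of all genes in that direction.

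**Figure D4:**
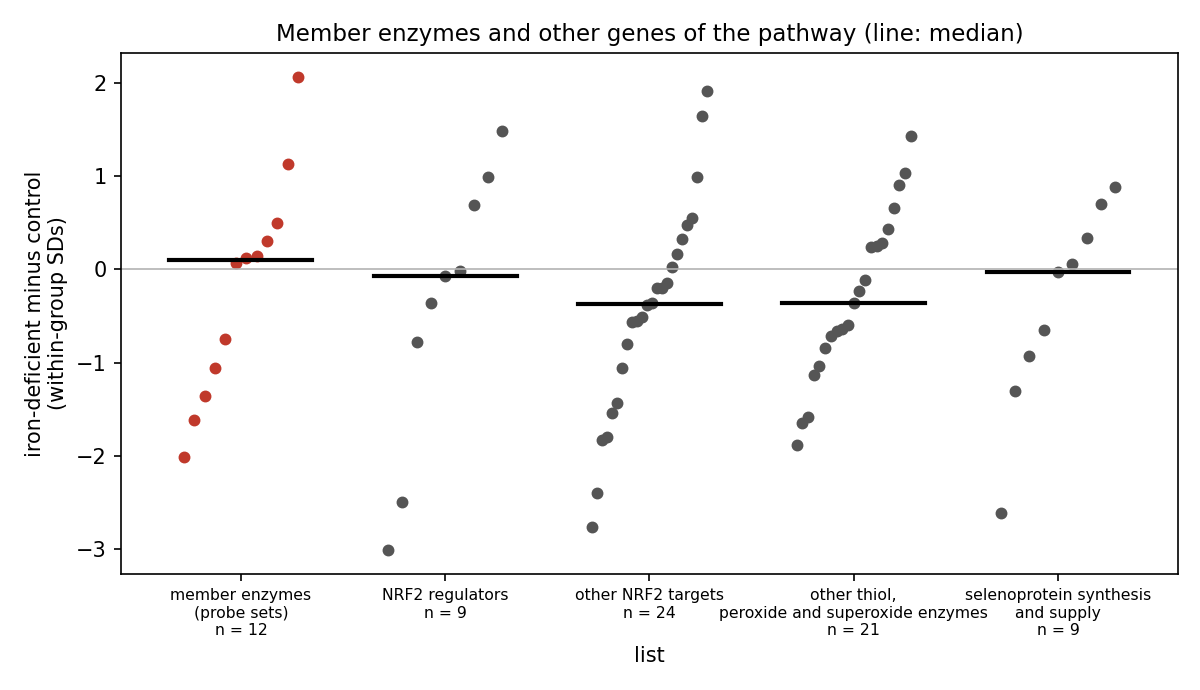
Standardised difference, iron-deficient minus control, of the 12 member probe sets (red) and of the genes of 4 related lists (grey, each gene by its brightest probe set), with a line at each median. Values lie on both sides of 0 in every list, and the medians run from -0.371 in the other NRF2 targets to 0.0965 in the members.

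Whole liver holds cells other than hepatocytes, and in bulk RNA fewer cells of a type and less RNA per cell cannot be told apart. Summed over marker genes on the linear scale, endothelial markers, 7 of 8 measured with 6 higher, ran from 5264.99 to 5265.72 in iron-deficient and from 5263.34 to 5263.94 in control livers. Kupffer cell markers, 7 of 8 measured and all higher, ran from 6470.56 to 6473.81 and from 6468.30 to 6469.78. Stellate cell markers, 8 of 8 measured with 6 higher, ran from 3786.66 to 3788.44 and from 3782.59 to 3785.25. Erythroid markers, 9 of 11 measured with 6 higher, overlapped, from 7285.88 to 7324.56 and from 7300.89 to 7343.49, as did hepatocyte markers, from 122211.08 to 122214.36 and from 122210.84 to 122213.19. On this linear scale, Lyz2 made up 92.3% of the Kupffer difference, Col3a1 75.9% of the stellate and Stab2 69.8% of the endothelial one. As compression differs between probe sets, these shares do not show which gene changed most. Lyz2 and Mrc1, for example, were higher by 2.84 and 2.82 within-group SDs. The Kupffer sums stayed apart under every scaling, but without Lyz2, a comparison chosen after seeing the data, they overlapped on the deposited scale, from 5682.50 to 5682.92 in iron-deficient and from 5682.31 to 5682.71 in control livers. With all their markers, the stellate sums overlapped under quantile normalization with and without Hamp and under median centring. The endothelial sums with all markers overlapped under quantile normalization without Hamp and under median centring. Without Col3a1 and Stab2, the stellate and endothelial sums stayed apart on the deposited scale and again overlapped under median centring. No marker gene is listed at 0. The part of these cells in the values of Nqo1, Cat and the other members was not tested.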

How the data were processed

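Liver RNA of 8 rats was measured on Affymetrix rat arrays. The table the authors deposited holds log2 values of 31099 probe sets, 1 for each array. The log base was read from the values, which run from 5.32 to 16.1, and array medians from 7.1199 to 7.1207 show a common scale. The summarisation of probes and the normalization of arrays are not given in the sources used here. Array controls, 57 probe sets, were left out. Of 31042 probe sets, 20826 had 1 symbol in the platform annotation, 436 several and 9780 none, and 20758 were matched by gene identifier to RefSeq.

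Iron-deficient minus control was fitted on all 8 arrays with limma 3.58.1 under R 4.3.3 (functions lmFit and eBayes), two-sided, with Benjamini-Hochberg adjustment over all 31042 probe sets at 0.05. Correlations had two-sided exact permutation tests over 40320 orders. The fit was tested on simulated data, where shifts of about the members' largest standardised differences were not recovered, so a member that misses the threshold is not shown to be unchanged. The precision is limited by 4 arrays per group, and no depth applies.

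All probe sets of the members were named. From each related list, fixed by hand, the text names genes past the threshold, up to 4 with an unadjusted p under 0.05 and groups that do not overlap or, where none, the 2 largest standardised differences, and always Nfe2l2, Keap1 and Hmox1. The members and lists were chosen with earlier results of these data known. Ugt1a6 has no probe set of its own here, and 1 item is not reported here. Of the markers, 2 of 4 neutrophil genes (both higher, sums 180.72 to 180.97 in iron-deficient and 180.66 to 180.90 in control livers), 5 of 6 lymphocyte genes (2 higher, 716.39 to 716.44 and 716.29 to 716.41) and 3 of 4 cholangiocyte genes (1 higher, 516.85 to 516.91 and 516.92 to 516.95) were measured. The cholangiocyte sums were lower in iron-deficient livers and apart on the deposited scale. They overlapped under quantile normalization with and without Hamp and under median centring.

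Alternatives were quantile normalization with and without the Hamp probe set, median centring, dropping the dimmest 25% of probe sets, a replicate block, trend and robust variance, the mean of a gene's probe sets and each array left out. The labels do not say that replicate numbers pair rats, so no pairing was used. Between the groups, deviations of same-numbered arrays correlated from -0.111 to 0.025 and those of differently numbered arrays from -0.149 to 0.169.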

Additional observations from a re-analysis of the deposited data

Results flagged for a closer look

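Of 40 groups of 4 values checked, 1 held an outlying liver. In the second Txnrd1 probe set, iron-deficient replicate 2 was the highest, and its gap of 1.09e-04 to the next liver was 0.860 of the group's range of 1.27e-04, above Dixon's 95% critical value. Its value was 9.73e-05 above the control mean, and the other Txnrd1 probe set also had its highest iron-deficient value in that liver. Chance flags about 1 in 20 such groups.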

How the results depend on the processing

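No member probe set and no related gene was called in limma except under quantile normalization, which called 3 members (Cat, Gpx1 and Gpx4 (first), limma adjusted p = 1.93e-18, 8.44e-12 and 2.33e-15, all turned higher) and 7 related genes. Run without Hamp, it gave those 3 members, Nfe2l2 and Sod1 8 equal values, so no difference could be fitted. With Hamp left out, Cat, Gpx1 and Gpx4 (first) ranked 65, 57 and 402 on every array. Their calls under quantile normalization thus reflect the changed rank of Hamp and are no result about these members. Over all probe sets the calls went from 10 to 1093 under quantile normalization, 83 without Hamp, 63 under median centring and 1 with a replicate block, and ran from 4 to 27 with single arrays left out. The replicate block changed no call among the members and related genes. Lower members went from 5 to 0 under quantile normalization and 1 under median centring, and ran from 5 to 8 with single arrays left out. Lower related genes went from 40 to 19 and 12. They were 34 under quantile normalization without Hamp and ran from 36 to 41 with single arrays left out. The matching shares over all probe sets and all genes are not given here.

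Signs turned as follows. Under quantile normalization Gclm became 8.43e-04, Cat 0.0283, Sod2 1.70e-04, Gpx1 0.00163, Gpx4 (first) 0.00709, Nfe2l1 1.62e-04, Gstp1 1.38e-04, Sod1 0.0125 and Eefsec 1.61e-04. Without Hamp it gave Gclc (second) -2.11e-04, Txnrd1 (second) -1.68e-04, Gpx4 (second) -1.36e-05, Nfe2l1 4.87e-07, Hmox1 -2.92e-05 and Eefsec 1.02e-04. Median centring, which adds 5.06e-05 to every difference, gave Cat 4.40e-05, Sod2 1.26e-05, Gpx1 3.81e-05, Gpx4 (first) 4.60e-05, Keap1 2.05e-05, Nfe2l1 3.30e-05, Sod1 4.72e-05 and Eefsec 1.86e-05. With single arrays left out, Gclc (first) ran from -1.27e-04 to 0.00145, Gclc (second) from -2.43e-04 to 3.08e-04, Txnrd1 (second) from -2.26e-05 to 1.99e-05, Gsr from -1.47e-05 to 9.90e-05, Gpx4 (second) from -1.62e-06 to 2.22e-06 and Hmox1 from -1.70e-04 to 2.54e-04. The correlation of the 2 Gclc probe sets, 0.954, was 0.327 and 0.298 under the 2 quantile settings and ran from 0.931 to 0.969 with single arrays left out. Nqo1, Txnrd1 (first), Nfe2l2 and Gpx3 kept their sign wherever a difference could be fitted. Beyond the added constant and the shift of ranks by Hamp, the causes were not tested.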
